A study of Mus musculus with 8 samples.

Results

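Kit, Cntn1, Synpr, Kirrel3, Pcdh7, Sema3d and Btbd16 were followed through the oligodendrocytes of aged mouse brain. These 7 genes, of 20354 in the deposited oligodendrocyte matrix, were chosen by their UMI counts in the oligodendrocyte clusters of these same cells, so their order over clusters is a description and carries no test. A UMI, or unique molecular identifier, marks 1 captured RNA molecule. Single cells of 24-month-old male mice were sequenced in 8 libraries on the 10x Chromium 3' platform, after dissociation with actinomycin D and sorting of cells negative for the dead-cell stain SYTOX Blue. The libraries were 2 of wild-type gray matter, 2 of wild-type white matter, 1 of Rag1-/- gray matter and 3 of Rag1-/- white matter. Gray matter was frontal cortex, and white matter was optic tract, medial lemniscus and corpus callosum. Rag1-/- mice cannot rearrange antigen receptor genes and lack mature T and B cells, and nothing else was deleted or given in any group. The sample labels give the strain as C57BL/6 for wild-type and NOD.129S7(B6)-Rag-1tm1Mom/J for Rag1-/- mice, while the study's methods name C57BL/6J for both, so genotype, possible strain and experiment cannot be told apart. Tissue was pooled from 3 mice (wild-type libraries 1) or 5 mice (wild-type libraries 2) and from 2 mice for Rag1-/- libraries 1, whereas Rag1-/- white matter libraries 2 and 3 held 1 mouse each. Within each genotype the sample labels put libraries 1 in batch 1 and the later numbers in batch 2. Mouse pool and batch of the wild-type libraries therefore cannot be told apart. The wild-type reads and both Rag1-/- batches were also processed with different Cell Ranger versions.

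The matrix held 15604 oligodendrocytes in 8 clusters with the authors' names: Oligo1a, Oligo1b, Oligo1c, Oligo2a, Oligo2b, Oligo2c, ARO (the age-related cluster) and IRO (the interferon-responsive cluster). A library contributed 284 to 4106 of these cells and 2754274 to 44269555 UMIs, with a median of 8669 to 12925.5 UMIs per cell, and 21 cell barcodes occurred in more than 1 library. All 8 oligodendrocyte marker genes were present in every library, at a summed 47475 to 56593 counts per 1000000 UMIs (CPM), whereas the 6 markers of oligodendrocyte precursors summed to 2.40 to 5.16 CPM. Markers of other cells moved with tissue: the 6 astrocyte markers summed to 263 to 313 CPM in the gray and 114 to 160 CPM in the white matter libraries, and the 8 neuronal markers to 8.86 to 12.1 and 1.33 to 4.10 CPM.

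Mature oligodendrocytes wrap axons in myelin, and adhesion molecules on both membranes hold the axon and its sheath together. Cntn1 encodes contactin 1, a lipid-anchored immunoglobulin-family protein of axons and glia that takes part in axon to glia contact. Kirrel3 encodes a nephrin-like immunoglobulin-family adhesion protein known from synapses, and Pcdh7 a non-clustered protocadherin. Kit encodes the receptor tyrosine kinase for stem cell factor, Sema3d a secreted semaphorin of the guidance cue family, and Synpr synaptoporin, a synaptic vesicle membrane protein related to synaptophysin. Btbd16 encodes a BTB-domain protein. Of the 7, Cntn1, Kirrel3 and Pcdh7 are adhesion proteins, and the others are a receptor, a ligand, a vesicle protein and a protein with no role stated here.

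The genes lie apart in the genome and do not overlap each other (GENCODE vM21, build GRCm38, all on the plus strand). Kit spans chr5:75574916-75656722, Pcdh7 chr5:57717967-58133230, Sema3d chr5:12383385-12588948, Cntn1 chr15:92051165-92341967, Synpr chr14:13284780-13616340, Kirrel3 chr9:34485894-35036716 and Btbd16 chr7:130774069-130825899. RefSeq promoter windows of 300 bases (GRCm38.p6) matched 6 of the 7 genes, with 11 start sites in all. The windows of Cntn1, Pcdh7, Sema3d and Synpr, the 4 genes whose pairs were detected together most often beyond expectation, are shown, at their most upstream start site, with matches to the SOX core ACAAAG or its reverse CTTTGT in capitals.
Cntn1, chr15:92050915-92051214: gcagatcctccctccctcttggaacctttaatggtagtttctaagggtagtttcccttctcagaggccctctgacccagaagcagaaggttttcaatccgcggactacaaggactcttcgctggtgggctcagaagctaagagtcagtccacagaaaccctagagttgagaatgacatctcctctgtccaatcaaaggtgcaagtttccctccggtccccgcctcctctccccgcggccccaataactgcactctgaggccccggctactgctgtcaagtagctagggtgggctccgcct
Pcdh7, chr5:57717831-57718130: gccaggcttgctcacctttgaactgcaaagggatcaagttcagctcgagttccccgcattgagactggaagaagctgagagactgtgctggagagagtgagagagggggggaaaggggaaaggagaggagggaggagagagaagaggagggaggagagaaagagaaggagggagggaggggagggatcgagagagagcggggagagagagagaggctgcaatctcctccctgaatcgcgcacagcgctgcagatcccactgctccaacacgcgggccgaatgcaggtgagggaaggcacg
Sema3d, chr5:12382916-12383215: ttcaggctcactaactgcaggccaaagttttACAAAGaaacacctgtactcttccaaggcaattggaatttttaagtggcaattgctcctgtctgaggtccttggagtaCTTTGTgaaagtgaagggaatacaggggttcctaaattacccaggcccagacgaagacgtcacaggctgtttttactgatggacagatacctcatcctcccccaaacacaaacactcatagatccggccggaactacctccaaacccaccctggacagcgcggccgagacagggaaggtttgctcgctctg
Synpr, chr14:13284530-13284829: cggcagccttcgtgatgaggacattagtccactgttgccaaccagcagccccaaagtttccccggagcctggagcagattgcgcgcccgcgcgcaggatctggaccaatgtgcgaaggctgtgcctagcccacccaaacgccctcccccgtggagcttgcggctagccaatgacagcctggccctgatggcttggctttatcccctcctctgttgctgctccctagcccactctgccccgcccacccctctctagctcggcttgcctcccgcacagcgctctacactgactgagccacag
The SOX core was present in 1 of the 11 windows, that of Sema3d with 2 matches, and in 18.7% of the 32851 windows of all genes. An E-box, CANNTG, was present in 6 of the 11 windows and in 72.3% of all, and of the 4 windows printed it was in those of Pcdh7 and Sema3d. The TATA box TATAAA or its reverse TTTATA was in 1 of the 11 windows and 13.6% of all. Both strands were searched, and no match says only that these letters are not in the window. The G and C content was 55.3% for Cntn1, 59.3% for Pcdh7, 49.7% for Sema3d and 63.7% for Synpr, against a median of 52.7% over all windows.

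All 7 genes were carried by Oligo1a and ARO and were low in the Oligo2 clusters. Oligo1a and ARO held 31.9% of the oligodendrocytes but 61.5% (Kirrel3) to 82.5% (Pcdh7) of each gene's UMIs, and the Oligo2 clusters held 34% of the cells and 1.504% (Sema3d) to 6.29% (Kirrel3) of the UMIs. Summed over the Oligo1 clusters, Kit lay between 13.1 and 30.9 CPM in the 8 libraries, and over the Oligo2 clusters between 0 and 3.32 CPM. For Kirrel3 the ranges were 26.1 to 39.3 and 1.34 to 13.8 CPM, so that the Oligo1 level was 2.31 to 21.97 times the Oligo2 level within a library. The plot of levels by cluster shows the same step for each gene.

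**Figure D1:**
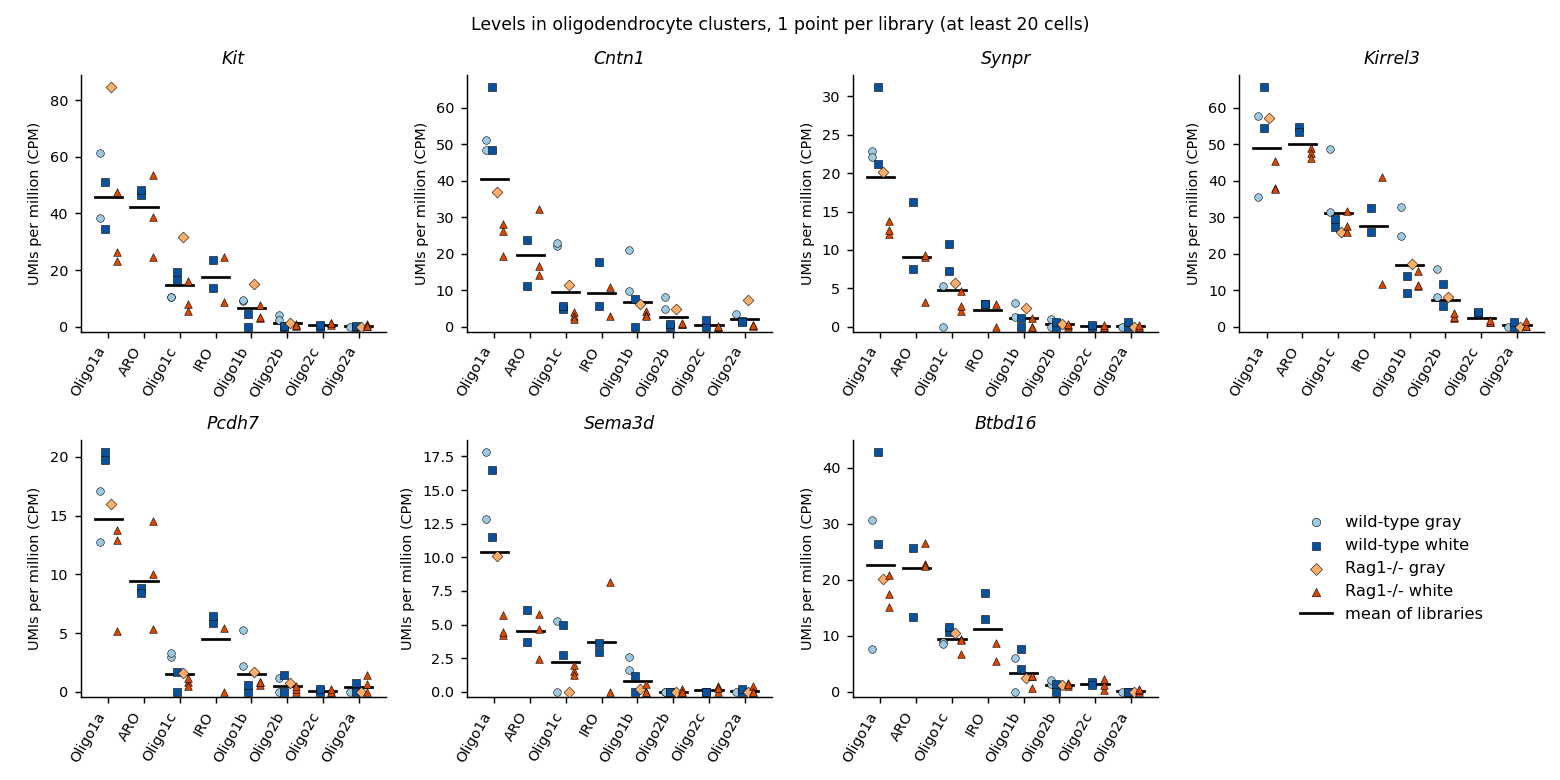
Each panel plots 1 gene's level (vertical axis, CPM) in each oligodendrocyte cluster (horizontal axis), with 1 point per library of at least 20 cells of that cluster, coloured by genotype and tissue, and a bar at the mean of libraries. Every gene is highest in Oligo1a, ARO or both and is lowest in the Oligo2 clusters, while the means of Cntn1, Synpr, Pcdh7 and Sema3d are lower in ARO than in Oligo1a.

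Kit, the stem cell factor receptor, was alike in both leading clusters within the spread, with 45.9 ± 20.2 CPM (SD, n = 8 libraries) in Oligo1a and 42.4 ± 11.2 CPM (SD, n = 5) in ARO, where the 5 libraries were all of white matter. In Oligo1a its levels were 38.2 and 61.3 CPM in wild-type gray matter, 34.6 and 51.2 CPM in wild-type white matter, 84.8 CPM in Rag1-/- gray matter, and 47.5, 26.5 and 23.2 CPM in Rag1-/- white matter. In ARO they were 46.6 and 48.3 CPM in wild-type and 53.6, 38.9 and 24.7 CPM in Rag1-/- white matter. ARO was above Oligo1a in 4 of the 5 libraries with both clusters. Next came IRO with 17.6 ± 7.72 CPM (SD, n = 4) and Oligo1c with 14.7 ± 8.23 CPM (SD, n = 8), which did not differ beyond their spread, then Oligo1b with 6.51 ± 4.71 CPM (SD, n = 8). The Oligo2 clusters had means of 0.273 to 1.22 CPM.

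Kirrel3, the nephrin-like adhesion protein, was the most widely found member. It reached 50.2 ± 3.65 CPM (SD, n = 5) in ARO and 49.0 ± 11.3 CPM (SD, n = 8) in Oligo1a, 31.1 ± 7.49 CPM (SD, n = 8) in Oligo1c, 27.7 ± 12.4 CPM (SD, n = 4) in IRO and 16.9 ± 7.997 CPM (SD, n = 8) in Oligo1b. It also had the highest level among the Oligo2 clusters: in Oligo2b it averaged 7.30 ± 4.68 CPM (SD, n = 8), above Oligo2a in 7 of 7 libraries and above Oligo2c in 5 of 5. Btbd16 had the same pair of leading clusters, with 22.7 ± 10.7 CPM (SD, n = 8) in Oligo1a and 22.2 ± 5.26 CPM (SD, n = 5) in ARO, and was above Oligo1b in Oligo1c in 8 of 8 libraries. Its mean in the Oligo2 clusters was 0.115 to 1.40 CPM.

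Cntn1 and Synpr were higher in Oligo1a than in ARO in most libraries with both clusters, and Pcdh7 and Sema3d less clearly so. Cntn1 averaged 40.6 ± 15.6 CPM (SD, n = 8) in Oligo1a and 19.6 ± 8.52 CPM (SD, n = 5) in ARO, and was higher in Oligo1a in 4 of 5 libraries. Rag1-/- white matter library 1 was the exception, at 28.1 CPM in Oligo1a and 32.4 CPM in ARO. Synpr averaged 19.5 ± 6.51 CPM (SD, n = 8) in Oligo1a and 9.09 ± 4.71 CPM (SD, n = 5) in ARO and was higher in Oligo1a in 5 of 5 libraries. Pcdh7 averaged 14.7 ± 4.83 CPM (SD, n = 8) and 9.45 ± 3.34 CPM (SD, n = 5), and Sema3d 10.4 ± 5.26 CPM (SD, n = 8) and 4.54 ± 1.51 CPM (SD, n = 5). For Pcdh7 and Sema3d 3 of 5 libraries had the higher level in Oligo1a, and the spreads of both clusters overlapped. Oligo1c held 1.52 ± 1.14 CPM of Pcdh7 (SD, n = 8), close to Oligo1b with 1.501 ± 1.66 CPM (SD, n = 8).

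The share of cells with at least 1 UMI was also highest in Oligo1a or ARO for each gene. The means of Oligo1a cover gray and white matter and those of ARO white matter only, so no order of these 2 clusters is read from them. With all UMIs, Kit was found in 23.1% ± 5.96 of ARO cells (SD, n = 5) and 20.5% ± 6.14 of Oligo1a cells (SD, n = 8), and Kirrel3 in 35.9% ± 4.62 and 30.9% ± 6.05. Thinned to 3000 UMIs in every cell, which left out 145 shallower cells, the shares were 11.97% ± 2.83 and 10.1% ± 3.36 for Kit and 13.5% ± 1.28 and 13.8% ± 4.42 for Kirrel3. Cntn1 was found in 17.4% ± 5.28 of Oligo1a cells (SD, n = 8) and 11.9% ± 2.11 of ARO cells (SD, n = 5) with all UMIs, and in 8.95% ± 2.88 and 4.08% ± 1.91 after thinning. Btbd16 was found in 15.2% and 18.1% of Oligo1a and ARO cells with all UMIs and in 6.13% and 6.78% after thinning. Synpr, Pcdh7 and Sema3d were found in 11.5%, 9.07% and 6.88% of Oligo1a cells with all UMIs and in 3.82%, 2.90% and 2.70% after thinning. At the depth of these cells the majority in each cluster gave no UMI of a given member, which does not show that those cells lack it.

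Microglia, which are not known for these genes, were used for the level of stray RNA. Among 7421 microglia named by the authors in the Rag1-/- libraries (median 5416 to 6751 UMIs per cell), 0% to 0.147% had a Kit UMI, 0.194% to 0.635% a Cntn1 UMI and 0.141% to 0.733% a Kirrel3 UMI by library. Among 1331 cells with microglial markers in the 4 wild-type libraries the ranges were wider, 0% to 0.769% for Kit, 0.347% to 1.57% for Cntn1, 0.347% to 0.899% for Kirrel3 and 0% to 3.37% for Pcdh7. Another 425 cells of the Rag1-/- libraries had microglial markers but were not among the authors' microglia, and held Cntn1 in 2.44% to 6.77%, Pcdh7 in 1.504% to 7.69%, Kit in 0% to 3.76% and Kirrel3 in 0% to 1.28%. After thinning, the mean share over libraries of the authors' microglia was 0.0617% for Kit, 0.143% for Cntn1 and 0.192% for Kirrel3. Oligo2a, at 0.113% of cells for Kit and 0.111% for Kirrel3 after thinning, was at the same low level. With all UMIs Kit was found in 0.508% to 0.580% of the 355, 197 and 517 Oligo2a cells in Rag1-/- white matter. These shares were above the authors' microglia, but cells were not matched for depth and the shares rested on few positive cells. In wild-type white matter Kit was found in 0% and 0.270%. Kirrel3 was found in 0.282% to 2.13% of these cells in Rag1-/- white matter and in 0% and 1.89% in wild-type white matter. Neither gene was found in Oligo2a cells of gray matter, which numbered 11 and 35 in the wild-type libraries and 38 in the Rag1-/- library. So few cells cannot show a tissue difference at such shares. Whether these Oligo2a values exceed stray RNA was not tested. The mean Cntn1 share of Oligo2a after thinning, 1.63%, rested on small libraries. Over all 8 libraries 7 of 1563 Oligo2a cells held a Cntn1 UMI, and Rag1-/- gray matter had the highest share with 2 of 38. With all UMIs Cntn1 was found in 0.508% to 0.580% of Oligo2a cells in the 3 Rag1-/- white matter libraries, 1.08% and 2.22% in wild-type white matter, 5.71% in wild-type gray matter library 2 and 10.5% in Rag1-/- gray matter. Each of these shares rested on 1 to 4 positive cells. Those of Rag1-/- white matter lay inside the range of the authors' microglia, and that of wild-type white matter library 2 inside the range of the wild-type microglial cells. Those of wild-type white matter library 1 (2.22%), wild-type gray matter library 2 (5.71%) and Rag1-/- gray matter (10.5%) lay above both ranges. The share of Rag1-/- gray matter also lay above the range of the further 425 cells. Whether Cntn1 in Oligo2a exceeds stray RNA was not tested. Kirrel3 in Oligo2b was above each of these microglial sets by its shares with all UMIs: its level was 2.39 to 15.8 CPM in the 8 libraries and 0.203 to 1.25 CPM in the authors' microglia, and 2.14% to 15.1% of Oligo2b cells held a UMI. After thinning its share in Oligo2b was 2.07% ± 2.14 (SD, n = 8).

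**Figure D2:**
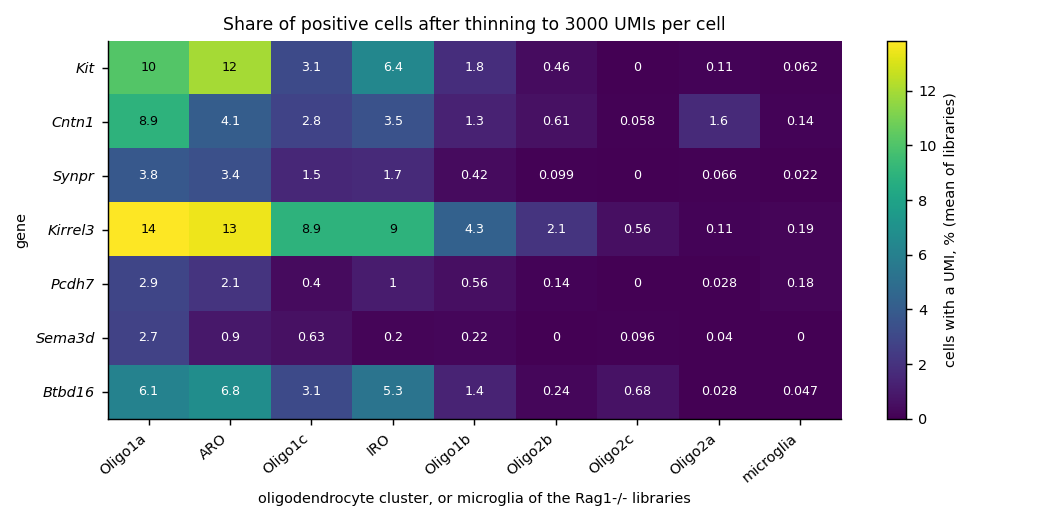
Each square gives the mean over libraries of the percentage of cells with a UMI of 1 gene (rows) in each oligodendrocyte cluster or in microglia (columns), after every cell was thinned to 3000 UMIs. Shares peak in Oligo1a and ARO, Kirrel3 extends furthest into the other clusters, and the microglia column is near 0. The Oligo2 columns are low but not all at the microglia level, as for Kirrel3 in Oligo2b.

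Members were found together in single cells. With all UMIs, 26.9% of Oligo1a cells and 28.0% of ARO cells held at least 2 of the 7 genes, against 0.446% to 0.618% in the 3 Oligo2 clusters. At least 3 members were found in 345 Oligo1a cells (12.2%) and 233 ARO cells (10.9%), and all 7 in 6 cells, each an Oligo1a cell of white matter. Since both genes of any pair peak in the same clusters, the number of double-positive cells was set against the number expected if detection were independent within each library and cluster. All 21 pairs exceeded that expectation, by 1.29 to 4.36 times with all UMIs and by 1.11 to 3.95 times after thinning. Cells and genes share library, depth and cluster boundaries here, so these ratios are given without a test.

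The 6 pairs among Cntn1, Synpr, Pcdh7 and Sema3d stood above the other 15, but these 4 genes were grouped by the same ratios. After thinning, these pairs were above expectation in 4 (Synpr and Pcdh7) to 8 (Cntn1 and Pcdh7) of 8 libraries. Pooled over libraries, the 6 pairs ranged from 2.50 to 4.36 times the expectation with all UMIs and from 2.40 to 3.95 after thinning. The 15 other pairs ranged from 1.29 to 2.09 and from 1.11 to 2.21. Contactin 1 and protocadherin 7 were the pair with the highest odds ratio: 232 cells held both Cntn1 and Pcdh7, where 57.9 were expected, and the count was above expectation in 8 of 8 libraries. The odds of detecting Pcdh7 were 10.8 times higher in cells with Cntn1 than in other cells of the same library and cluster, and 5.56 times after thinning, where 40 cells held both and 10.1 were expected. Pcdh7 and Sema3d were found together in 93 cells (21.3 expected) and Cntn1 and Sema3d in 143 cells (41.8 expected). Kit and Kirrel3, the members found in most cells, were found together in 558 cells (405 expected), a ratio of 1.38. The lowest ratio with all UMIs was that of Kirrel3 and Btbd16, with 439 cells against 340 expected (ratio 1.29). With all UMIs 15 of the 21 pairs were above expectation in 8 of 8 libraries, and after thinning, when a pair rested on 9 to 112 double-positive cells, 1 pair was.

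**Figure D3:**
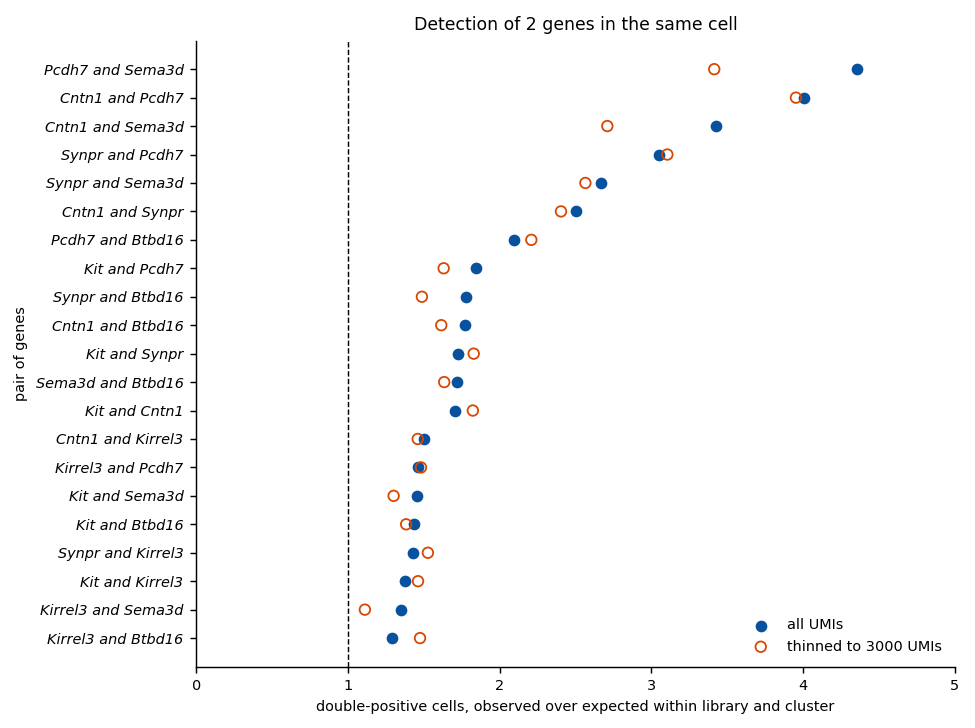
The horizontal axis gives the number of cells with both genes of a pair divided by the number expected within library and cluster, the dashed line marks 1, filled points use all UMIs and open points cells thinned to 3000 UMIs. All 21 pairs lie to the right of 1, and the 6 pairs made of Cntn1, Synpr, Pcdh7 and Sema3d lie at the top under both settings.

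Markers of other cells were read in the cells with several of these genes. The 37 Oligo1a cells with Cntn1, Pcdh7 and Sema3d together came from all 8 libraries. Their 8 oligodendrocyte markers summed to 62278 CPM, against 51293 CPM in the 2249 Oligo1a cells with none of the 3 genes. Their precursor markers summed to 9.73 CPM against 5.47 CPM, their astrocyte markers to 77.8 CPM against 140 CPM, and no UMI of the neuronal markers was seen in them. Their median depth was 13342 UMIs against 8452 UMIs, so they were also the deeper cells. Among ARO cells, precursor markers summed to 4.98 CPM in the 1794 cells with none of the 3 genes, 6.83 CPM in the 244 with 1, 7.02 CPM in the 75 with 2 and 3.21 CPM in the 25 with all 3. Neuronal markers summed to 1.26, 4.17, 3.51 and 0 CPM, neuroblast markers to 2.83, 7.97, 4.68 and 0 CPM, and astrocyte markers to 88.4, 89.9, 59.7 and 57.8 CPM in the same order. In these sums ARO cells with 1 or 2 of the genes had higher values of the precursor, neuronal and neuroblast lists than cells with none. In the sets of 25, 37 and 75 cells those sums, and the absence of neuronal UMIs, rest on very few UMIs. Cells of all libraries were pooled, so the values describe the pools and carry no test. The part of such RNA in the co-detection was not tested.

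Over all oligodendrocytes of a library, 5 of the 7 genes were higher in every wild-type white matter library than in either gray matter library, and none passed the test. Kit stood at 11.6 and 12.9 CPM in gray and 18.7 and 22.9 CPM in white matter (log2 fold change 0.77 ± 0.33 SE, edgeR adjusted p = 0.502). Btbd16 stood at 3.63 and 7.67 CPM in gray and 11.5 and 12.8 CPM in white matter (0.96 ± 0.28 SE, adjusted p = 0.219), and Synpr at 3.63 and 4.59 CPM against 9.16 and 6.60 CPM (0.86 ± 0.28 SE, adjusted p = 0.305). The white libraries were thus above the gray ones for each of these 3 genes, as they were for Pcdh7 (0.51) and Sema3d (0.32), but 19.1% of the 13067 genes tested were separated in this direction. In the opposite direction 0 of 7 members and 19.2% of all genes were separated. Kirrel3 overlapped, with 29.4 and 25.1 CPM in gray and 29.8 and 27.9 CPM in white matter (0.11 ± 0.13 SE). Cntn1 overlapped too, with 20.3 and 14.2 CPM in gray and 11.3 and 14.7 CPM in white matter (-0.31 ± 0.27 SE, adjusted p = 0.852). The test called 0 of 7 members and 1% of the genes tested (131 of 13067). An unadjusted p under 0.05 was reached by 3 members and 9.58% of all genes. DESeq2 called 0 members and 2.16% of all genes, and edgeR with the mouse pool as a block called 2, Kit (0.80, adjusted p = 1.26e-05) and Btbd16 (0.92, adjusted p = 0.00019), where the background rose to 10% and 1 residual degree of freedom was left.

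**Figure D4:**
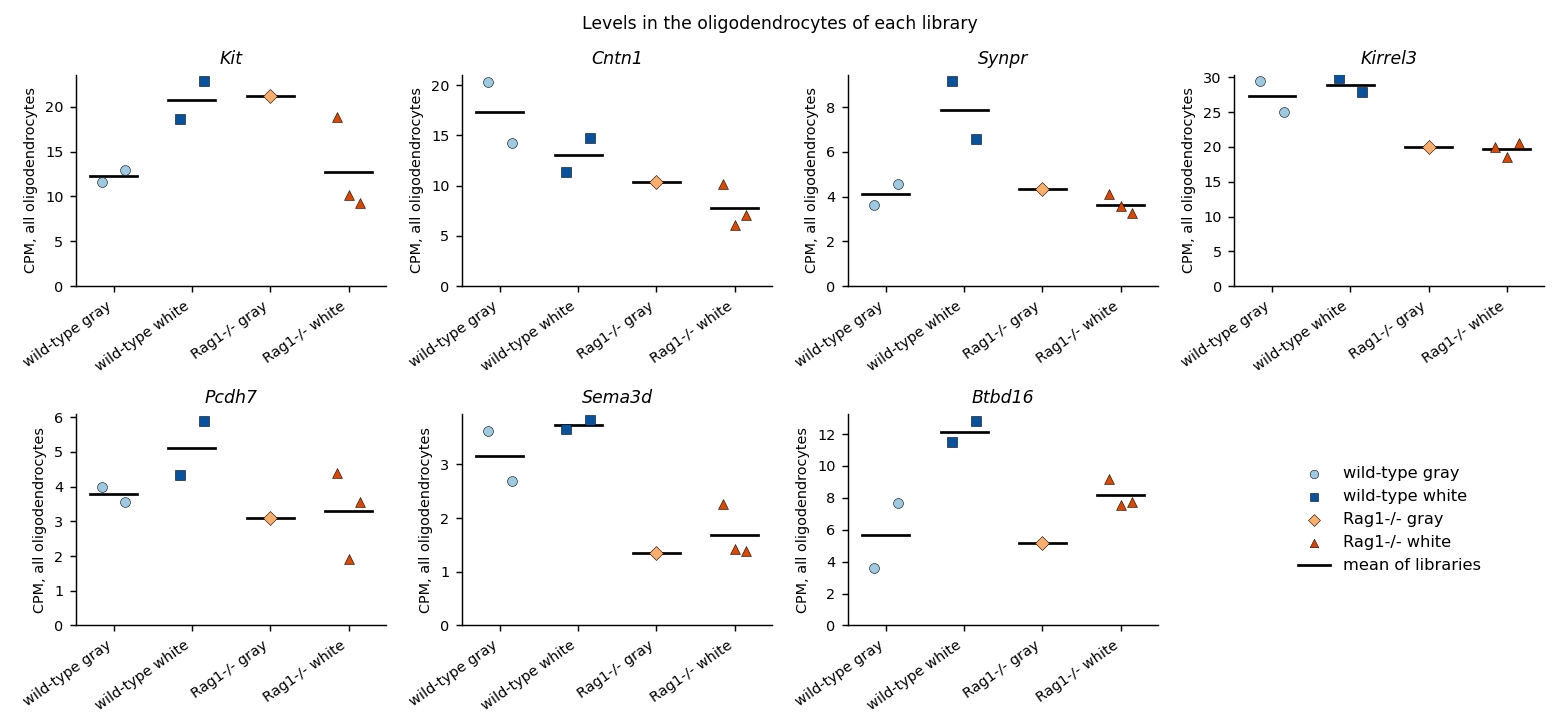
Each panel plots 1 gene's level over all oligodendrocytes (vertical axis, CPM) by genotype and tissue, with 1 point per library and a bar at the mean. White matter lies above gray matter in wild-type mice for Kit, Synpr and Btbd16, and the Rag1-/- white matter libraries lie below the wild-type ones for Cntn1, Synpr, Kirrel3, Sema3d and Btbd16.

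The cluster mix of the libraries moved with these values. ARO made up 21.7% and 21.6% of the oligodendrocytes in wild-type white matter, 0.352% (1 cell) and 0% in gray matter, and 13.8%, 6.99% and 15.8% in Rag1-/- white matter, whereas Oligo1b fell from 25.7% and 39.1% of gray to 11.9% and 3.99% of white matter cells. If each cluster of a library held the mean level of that cluster in the other libraries, Kit would have been 12.6 and 9.53 CPM in wild-type gray and 19.0 and 19.8 CPM in wild-type white matter, and the measured values were 0.921 and 1.35 times (gray) and 0.982 and 1.16 times (white) those. The same arithmetic gave 7.40 and 5.13 CPM of Btbd16 in gray and 10.45 and 10.6 CPM in white matter, and the measured values were 0.491 and 1.497 times (gray) and 1.10 and 1.21 times (white) those. For Synpr it gave 4.51 and 3.12 CPM in gray and 4.56 and 6.06 CPM in white matter, where the measured values were 0.806 and 1.47 times and 2.01 and 1.09 times those. Cntn1 was 2.12 and 1.65 times (gray) and 0.905 and 1.10 times (white) the value so computed. The measured levels of single libraries were thus between 0.491 and 2.12 times the computed ones for these 4 genes in wild-type mice. Within Oligo1a, which both tissues hold, Kit differed by -0.20 ± 0.37 and Btbd16 by 0.37 ± 0.41 on the log2 scale (SE, adjusted p = 1 for both). Within Oligo1c Kit differed by 0.83 ± 0.49 and Btbd16 by 0.41 ± 0.37 (SE). The values within Oligo1b were -1.51 ± 0.73 and 0.30 ± 0.92 (SE). In Oligo2b Kit differed by -4.01 ± 1.28 (SE, edgeR adjusted p = 0.531), at 2.43 to 4.07 CPM in gray and 0 to 0.161 CPM in white matter. None of these passed, and the sign of the Kit difference was not the same in all clusters.

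Cntn1 was lower in white matter within Oligo1c, short of the threshold. It stood at 22.2 and 23.0 CPM in the wild-type gray matter libraries and 4.94 and 5.69 CPM in the white matter libraries (-2.02 ± 0.39 SE, edgeR adjusted p = 0.0527), with 0.247% of the 10541 genes called in that cluster, against 0.0474% in Oligo1a, 0.0295% in Oligo1b and 0.154% in Oligo2b. In Oligo2b the gray libraries held 8.13 and 4.85 CPM and the white ones 0 and 0.806 CPM (-2.97 ± 0.83 SE, adjusted p = 0.352), and in Oligo1b 20.9 and 9.86 CPM against 0 and 7.496 CPM. In Oligo1a Cntn1 did not separate the tissues, at 48.4 and 51.3 CPM in gray and 65.9 and 48.5 CPM in white matter (0.12 ± 0.26 SE). Whether the tissue difference of Cntn1 differs between Oligo1c and Oligo1a was not tested. Astrocyte markers in the same Oligo1c cells summed to 275 and 195 CPM in gray and 102 and 108 CPM in white matter, and cells outside the oligodendrocyte matrix that carried astrocyte markers held 26.2 to 71.6 CPM of Cntn1 by library. In Oligo1a the astrocyte markers summed to 270 and 188 CPM in gray and 104 and 112 CPM in white matter. Neuronal markers summed to 16.3 and 8.54 CPM in gray and 0 and 1.48 CPM in white matter cells of Oligo1c. In the same order they summed to 13.1, 10.3, 1.54 and 8.07 CPM in Oligo1b and 4.07, 9.22, 4.998 and 0.967 CPM in Oligo2b. In Oligo1a they summed to 2.55, 5.7, 3.29 and 2.04 CPM. The part of astrocyte or neuronal RNA in the Cntn1 values was not tested. Of 21 member and cluster pairs with enough counts, 0 passed edgeR, against 0.121% of all gene and cluster pairs. An unadjusted p under 0.05 was reached by 5 of the 21 and by 5.1% of all pairs, and DESeq2 was not run within clusters. With no filter on low counts, or with the mouse pool as a block, Cntn1 in Oligo1c passed (adjusted p = 0.000599 and 0.000204, the block with 1 residual degree of freedom). The share of all genes called in Oligo1c under these settings is not given here. Over all oligodendrocytes the block raised that share from 1% to 10%.

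In Rag1-/- mice the tissue pattern rested on 1 gray matter library. Kit was 21.2 CPM there and 18.9, 10.1 and 9.27 CPM in white matter (-0.72 ± 0.34 SE, edgeR adjusted p = 0.562). The gray matter value was 2.31 times that computed from the cluster shares and was high in every Oligo1 cluster, at 84.8 CPM in Oligo1a, 31.5 CPM in Oligo1c and 14.9 CPM in Oligo1b. Among white matter libraries, library 1 of the same 2-mouse pool was above libraries 2 and 3 in Oligo1a, ARO and Oligo1c, but in Oligo1b it was the lowest, at 3.08 CPM against 3.25 and 7.80 CPM. With the mouse pool as a block the Kit difference was -0.18 (adjusted p = 0.825), since gray and white matter of that pool held 21.2 and 18.9 CPM. Without white matter library 1 the Kit difference was -1.09. This set 1 gray matter library of the first batch, assumed to vary like the other groups, against 2 white matter mice of the second. Tissue, mice and batch cannot be told apart there. Btbd16 was 5.16 CPM in gray and 9.16, 7.57 and 7.71 CPM in white matter (0.68 ± 0.33 SE, adjusted p = 0.564). The test called 0 of 7 members and 0.436% of the genes, no member and 9.62% of all genes had an unadjusted p under 0.05, and DESeq2 called 0 members and 1.59% of all genes. With the mouse pool as a block, edgeR called 0 members and 5.27% of all genes. Of the 7 members, 2 were higher and 3 lower in each white matter library than in the gray one, where 31.4% and 29.9% of all genes were.

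The difference between tissues was compared between genotypes directly. Kit had the largest such value among the members, -1.49 ± 0.48 SE on the log2 scale (unadjusted p = 0.0122, edgeR adjusted p = 1), from fold changes of 0.77 in wild-type and -0.72 in Rag1-/- mice. It comes from the fit without the block and rests on the 1 Rag1-/- gray matter library. No member was called, and neither was any of the 13067 genes (0%). An unadjusted p under 0.05 was reached by 2 members and by 1.81% of all genes, and DESeq2 called 3 genes (0.023%), none of them a member.

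All 7 genes had lower values in Rag1-/- than in wild-type white matter, and none passed the test over all oligodendrocytes. Synpr was 9.16 and 6.60 CPM in wild-type and 4.12, 3.58 and 3.25 CPM in Rag1-/- white matter (-1.01 ± 0.23 SE, edgeR adjusted p = 0.128). Kirrel3 was 29.8 and 27.9 CPM against 20.05, 18.5 and 20.5 CPM (-0.48 ± 0.11 SE, adjusted p = 0.16), and Sema3d 3.66 and 3.82 CPM against 2.26, 1.42 and 1.38 CPM (-1.09 ± 0.33 SE, adjusted p = 0.342). Groups did not overlap for these 3 genes, for Cntn1 (-0.71 ± 0.23 SE) or for Btbd16 (-0.53 ± 0.22 SE), with each Rag1-/- library below each wild-type library. That made 5 of 7 members, where 18.6% of all genes were separated in this direction, and 0 of 7 where 9.36% were separated in the other. Kit overlapped through Rag1-/- library 1, at 18.9 CPM beside the wild-type 18.7 and 22.9 CPM (-0.67 ± 0.27 SE, adjusted p = 0.56). Without that library, when both Rag1-/- libraries left were of the second batch, Kit passed the edgeR test (-1.04, adjusted p = 0.0203). The share of all genes called without that library is not given here. The median log2 fold change was -0.67 over the members and 0.01 over all genes tested. The test called 0 of 7 members and 0.911% of the genes (119 of 13067), 6 members and 8.29% of all genes had an unadjusted p under 0.05, and DESeq2 called 0 members and 1.49% of all genes. With each cluster at its mean over the other libraries, a reference that differs from library to library, the cluster shares gave 26.4 and 27.1 CPM of Kirrel3 in wild-type and 24.4, 23 and 23.7 CPM in Rag1-/- white matter, and the measured values were 1.13 and 1.03 times and 0.820, 0.804 and 0.867 times those. For Synpr the same computation gave 4.56 and 6.06 CPM against 5.74, 5.79 and 5.69 CPM, and for Sema3d 2.75 and 3.08 CPM against 2.93, 3.09 and 2.99 CPM.

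Within Oligo1a, Cntn1 was lower in Rag1-/- white matter and passed the test. It stood at 65.9 and 48.5 CPM in wild-type and 28.1, 19.4 and 26.1 CPM in Rag1-/- white matter (-1.08 ± 0.21 SE, edgeR adjusted p = 0.0423), where 0.73% of the genes in that cluster were called (77 of 10541). The groups did not overlap, and Rag1-/- gray matter, at 37.0 CPM, lay below wild-type gray matter, at 48.4 and 51.3 CPM. The adjusted p rose to between 0.0634 and 0.205 when any 1 of the 5 white matter libraries was left out, with a fold change of -1.40 to -0.90. Precursor markers in these Oligo1a cells summed to 8.23 and 5.69 CPM in wild-type and 4.18, 5.69 and 6.41 CPM in Rag1-/- white matter, and astrocyte markers to 104 and 112 CPM and 117, 136 and 149 CPM.

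The other members pointed the same way in Oligo1a without passing. Sema3d was 16.5 and 11.5 CPM in wild-type and 5.71, 4.27 and 4.48 CPM in Rag1-/- white matter (-1.33 ± 0.32 SE, adjusted p = 0.144), and Synpr 31.3 and 21.2 CPM against 12.1, 12.6 and 13.8 CPM (-0.82 ± 0.23 SE, adjusted p = 0.336). In Oligo1a each Rag1-/- white matter library lay below each wild-type one for Sema3d, Synpr, Cntn1, Pcdh7, Kirrel3 and Btbd16, while Kit overlapped. The share of all genes separated in this way within Oligo1a is not given here. Pcdh7 (-0.84), Btbd16 (-0.73), Kirrel3 (-0.47) and Kit (-0.46) had adjusted p-values of 0.979 or more. In ARO the values were between -0.59 (Synpr) and 0.22 (Pcdh7), with Cntn1 at 0.16 ± 0.34 SE, and 0.99% of the genes in ARO were called. Whether the genotype difference of Cntn1 differs between Oligo1a and ARO was not tested. Of 29 member and cluster pairs with enough counts, 1 was called and 20 were negative, against 0.815% of all gene and cluster pairs called. An unadjusted p under 0.05 was reached by 10 of the 29 and by 5.65% of all pairs. The share of genes called was 0.571% in Oligo1b, 0.92% in Oligo1c, 0.739% in Oligo2a, 0.87% in Oligo2b and 0.891% in Oligo2c. The other 20 pairs, mainly in the Oligo2 clusters, were too low to test.

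**Figure D5:**
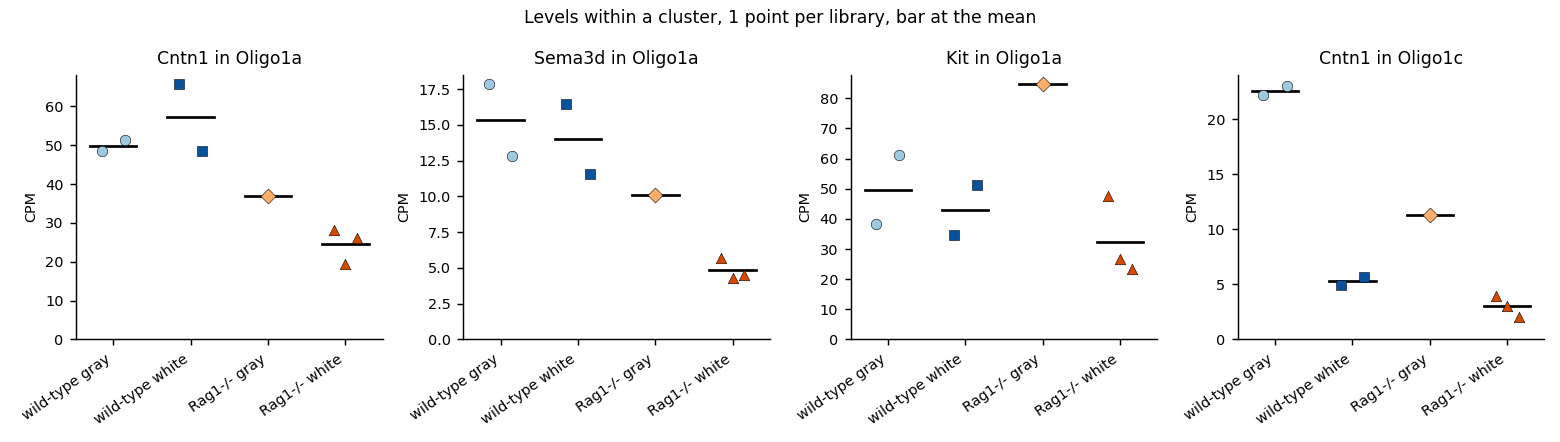
Levels (vertical axis, CPM) of Cntn1, Sema3d and Kit in Oligo1a and of Cntn1 in Oligo1c by genotype and tissue, with 1 point per library and a bar at the mean. In Oligo1a the Rag1-/- white matter libraries lie at 19.4 to 28.1 CPM of Cntn1, below all other libraries, and in Oligo1c the wild-type gray matter libraries lie at 22.2 and 23.0 CPM, above all others.

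Related genes of the same pathways were read from 7 lists with 141 genes beside the members, of which 115 were tested. In wild-type mice 2 were higher and 2 lower in white matter, and their median log2 difference was -0.10 where that of all genes was -0.01. Of all genes tested 97 were higher and 34 lower. None of the 4 calls held with the wild-type libraries alone, and leaving out 1 library gave 2 calls without gray matter library 1, 3 without white matter library 1 and 0 without either library 2. Lsamp, an immunoglobulin-family adhesion protein of neurons, was 11.6 and 10.3 CPM in gray and 2.998 and 3.55 CPM in white matter (-1.67 ± 0.22 SE, edgeR adjusted p = 0.0127). Cdh6, a classical cadherin, was 20.3 and 15.7 CPM in gray and 7.996 and 9.13 CPM in white matter (-1.001 ± 0.19 SE, adjusted p = 0.0478). Neuronal markers in the same wild-type oligodendrocytes summed to 9.80 and 8.86 CPM in gray and 1.33 and 1.45 CPM in white matter. The part of RNA from other cells in the Lsamp and Cdh6 values was not tested. Sema4d, a membrane-bound semaphorin of oligodendrocytes, was 192 and 217 CPM in gray and 313 and 346 CPM in white matter (0.70 ± 0.12 SE, adjusted p = 0.0327). Lrrtm2, a leucine-rich repeat synaptic adhesion protein, was 15.2 and 16.6 CPM in gray and 28.5 and 28.9 CPM in white matter (0.84 ± 0.16 SE, adjusted p = 0.0478). In the main edgeR fit no gene was called among the 22 tested of Kit signalling or the 21 of contactins and axoglial adhesion. The same held for the 10 semaphorin receptors and the 5 genes of the synaptophysin family. In the other comparisons 0 of the 115 passed edgeR, with 20 at an unadjusted p under 0.05 between Rag1-/- tissues (9.62% of all genes) and 17 between genotypes in white matter (8.29% of all genes). Between wild-type tissues 26 of the 115 reached it, where 9.58% of all genes did.

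The genes most like each member were sought among 7857 genes with a mean of at least 10 CPM, over 44 sums of 1 library and 1 cluster with at least 50 cells. Synpr, Pcdh7, Sema3d and Btbd16 were under that mean and could not be found as partners, so the members' own correlations are given first. On log2(CPM + 1) the pairs of members ranged from Pearson r = 0.738 (Kirrel3 and Sema3d) to 0.910 (Synpr and Sema3d). Kit had r = 0.898 with Synpr, 0.888 with Cntn1 and 0.832 with Sema3d, and Pcdh7 had r = 0.867 with Cntn1, 0.842 with Sema3d, 0.831 with Synpr and 0.828 with Kit.

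Among the 7857 genes that met the mean, Kit was nearest to Rap2a, a Ras-family GTPase (r = 0.917), Plekha1 (r = 0.913) and the lactate dehydrogenase gene Ldha (r = 0.896). Kirrel3 was nearest to Gfra1, a receptor for glial cell line-derived neurotrophic factor (r = 0.972), then to Nr4a1 (r = 0.946) and Arhgef19 (r = 0.944). Btbd16 was nearest to Plekha1 (r = 0.909), whose gene starts 39.9 kb downstream of it on the same strand of chromosome 7, then to Gm48678 (r = 0.894) and Hebp1 (r = 0.878). The nearest eligible gene was Kit for Cntn1, Synpr and Sema3d, and Cntn1 for Pcdh7. The next ones were Kirrel3 (r = 0.865) and Prickle1 (r = 0.843) for Cntn1, Plekha1 (r = 0.840) and Myrip (r = 0.835) for Synpr, Kit and Mdm2 (r = 0.786) for Pcdh7, and Dgat2 (r = 0.815) and Mdm2 (r = 0.810) for Sema3d. The 44 sums share libraries and clusters, so these values describe likeness over clusters and carry no p.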

How the data were processed

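Processed data of 8 libraries were used. The authors aligned reads to mm10 with Cell Ranger (version 4 in the processing notes, several versions in the methods), filtered cells and named the clusters, and they deposited UMI counts per gene and cell with cluster names. The 8171 cells of 4 libraries of another series were not used. Members and lists were chosen with earlier results of these data known.

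Counts were summed per library, or per library and cluster with at least 20 cells. Levels are counts per 1000000 UMIs (CPM) of the cells summed. Sums over 16999 genes listed for both genotypes were tested in edgeR 4.0.16 (TMM, quasi-likelihood, filterByExpr, 4 groups, 4 residual degrees of freedom, Benjamini-Hochberg, threshold 0.05), with DESeq2 1.42.0 and R 4.3.3 as alternative. Scripts were tested on simulated data. Cells were thinned without replacement to 3000 UMIs. Expected double-positive cells and Mantel-Haenszel odds ratios were stratified by library and cluster. Doublets were not called again. Total counts per library were 2754274 to 44269555. Libraries are pools or single mice, so p-values measure the spread between libraries. The main fits treat gray and white matter libraries of the same mice as independent, which can overstate the residual degrees of freedom. This includes the fit that called Cntn1 in Oligo1a between genotypes, a comparison for which no block was fitted.

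Gray and white matter libraries with the same number came from the same mice in wild type (methods of the study) and from the same batch. Their deviations correlated (r = 0.406), a value in which mouse pool and batch cannot be told apart. Blocking by pool was an alternative. Named genes were the members, list genes past the threshold (at most 3 per list) and the 3 genes most alike per member.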

Additional observations from a re-analysis of the deposited data

Results flagged for a closer look

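Cells with precursor, astrocyte or neuroblast markers outside the oligodendrocyte matrix carried 6 of the 7 members at shares above those of microglia, and none held a Btbd16 UMI. Among 20 cells with markers of oligodendrocyte precursors, all in Rag1-/- white matter library 1, Cntn1 was found in 95% (exact 95% interval 75.1% to 99.9%), Sema3d in 80% (56.3% to 94.3%), Pcdh7 in 70% (45.7% to 88.1%) and Kit in 15% (3.21% to 37.9%), while Kirrel3 was found in 10% and Synpr and Btbd16 in 0 of 20 cells. Their Cntn1 level was 1644 CPM, and Sema3d and Pcdh7 stood at 264 and 176 CPM. These are the 3 members with the highest odds ratios for detection in the same oligodendrocyte. Any link between these precursor levels, from 1 library, and that co-detection was not tested. Among 1382 cells with astrocyte markers in 6 libraries, Pcdh7 was found in 16.8% to 62.8%, Cntn1 in 8% to 20.9% and Kirrel3 in 4.8% to 26.4%. Among 294 cells with neuroblast markers in 4 white matter libraries, Synpr was found in 23.8% to 40%, Kirrel3 in 2.53% to 6.86% and Kit in 0%. The authors' microglia had 0.586% or less for Pcdh7, 0.733% or less for Kirrel3 and 0.0733% or less for Synpr, and cells with microglial markers in the wild-type libraries 3.37%, 0.899% and 0.769% or less. Cells were assigned by the list with the most detected markers, at least 3, so these are ranges of a marker count and not clusters. Intervals cover counting error only.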

How the results depend on the processing

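Of 238 values of a member in a comparison recomputed under an alternative, 221 kept their direction and their side of the threshold, 4 passed it and 13 changed sign, none of those 13 called. The number of members called stayed at 0 except for 2 in wild-type tissue under the replicate block by mouse pool, and except when a library was left out: 0 to 1 in Rag1-/- tissue and 0 to 1 between genotypes in white matter, the 1 being Kit without Rag1-/- white matter library 1. Pathway genes called in wild-type tissue, 4 in all, became 9 with DESeq2, where 2.16% of all genes were called. They became 31 under the replicate block, where 10% of all genes were called. With wild-type libraries alone 0 were called, and 0 to 3 with a library left out. Members called within clusters between wild-type tissues became 1 with no filter and 1 under the block. Between genotypes they became 2 with no filter, Cntn1 and Sema3d in Oligo1a, and 0 to 1 with a library left out. Without Rag1-/- white matter library 1 the 1 is Kit in Oligo1c (-1.41, adjusted p = 0.0104), while Cntn1 in Oligo1a missed the threshold. For settings with no filter, with a library left out, or with the block within clusters, the share of all genes called is not given. Calls under those settings are therefore not set against a background here and are not read as results about the members.

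Signs changed for Kirrel3 in Rag1-/- tissue with DESeq2 size factors (-0.0081), DESeq2 (-0.0079), no filter (-0.017) and the replicate block (-0.0032), and with a library left out (-0.068 to 0.015). The same was seen for Pcdh7 there (-0.12 to 0.35) and, in the comparison of tissue differences between genotypes, for Cntn1 (-0.31 to 0.16), Sema3d (-0.22 to 0.23) and Btbd16 (-1.14 to 0.013). The cause of these changes was not tested.

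The number of pairs above expectation was 21 with and without thinning, and Oligo1a or ARO held the highest mean share of all 7 members under all 3 depths. Shares themselves move with depth, which limits them: Kit in Oligo1a was 6.22% at 1500 UMIs and 20.5% unthinned. By Spearman's rho, 2 of the 3 most alike genes were kept for each member except Pcdh7, for which 1 was.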
